A study of Mus musculus with 8 samples.

Results

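Enzymes that make and clear oxysterols, or that esterify cholesterol, were followed in mouse liver on a cholesterol-rich diet. The genes were listed by name and function, under no threshold on a measured value: Ch25h, Cyp46a1, Cyp7b1, Cyp39a1, Soat1, Soat2, Lcat and Osbpl3, which are 8 of the 27962 gene names on the array. All 8 genes had a probe, 13 probes in total, and all 13 passed the filter for dim signal. The genes were chosen with earlier results of these data known, so the share of them called is not a test of the group. The livers came from male C57BL/6 wild-type mice (C57BL/6J in the methods of the study), given in the labels as 14 to 17 weeks of age at the start, which received either a standard chow (STD) diet or an atherogenic (ATH) diet rich in fat and cholesterol for 4 weeks (n = 4 mice per diet, 1 array per mouse). The ATH diet also contained cholic acid, a bile acid, so the effects of its fat, cholesterol and cholic acid cannot be told apart in these samples. Whole liver was homogenized, and every value is an average over all of its cell types. Labeled RNA was hybridized to 1-color Agilent arrays of 60-base probes. Each level below is the log2 of the background-subtracted spot intensity minus the 75th percentile of its array, and arrays are given in the order of their replicate numbers.

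Oxysterols are cholesterol molecules that carry an additional oxygen group. Ch25h and Cyp46a1 place that group on the cholesterol side chain, the first an enzyme of macrophages and other immune cells and the second best known from neurons. Cyp7b1 and Cyp39a1 hydroxylate oxysterols further and pass them toward bile acid synthesis. Soat1 and Soat2 join cholesterol to a fatty acid inside the cell, Soat1 broadly and Soat2 mainly in hepatocytes and enterocytes. Lcat, secreted by hepatocytes, esterifies cholesterol on lipoproteins in plasma, and Osbpl3 belongs to the oxysterol-binding proteins, which carry or sense lipids at membranes.

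The stretches of the genome before the start sites of the genes are shown for the members called changed by diet for which a sequence was at hand, so that the regulatory letters of genes that moved in opposite directions can be read side by side. RefSeq sequences of assembly GRCm38.p6 were matched for 5 of the 8 genes (Ch25h, Cyp46a1, Soat1, Lcat and Osbpl3). Each run is 250 bases, 5′ to 3′ on the strand of the gene, and ends at the base before the start site. Capitals mark matches, on either strand, to any of 4 promoter motifs. The motifs are the TATA box, spelled TATAAA, and the CCAAT box, which has the letters of its name. The GC box was searched as GGGCGG. The cyclic AMP response element was searched in its full palindromic form TGACGTCA. No match overlapped another.
Ch25h, chr19:34475149-34475398, minus strand: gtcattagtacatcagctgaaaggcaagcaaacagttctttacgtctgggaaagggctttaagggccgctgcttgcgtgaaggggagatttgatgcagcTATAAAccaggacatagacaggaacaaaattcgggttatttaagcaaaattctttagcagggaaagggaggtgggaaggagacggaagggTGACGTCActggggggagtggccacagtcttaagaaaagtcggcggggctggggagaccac
Soat1, chr1:156474329-156474578, minus strand: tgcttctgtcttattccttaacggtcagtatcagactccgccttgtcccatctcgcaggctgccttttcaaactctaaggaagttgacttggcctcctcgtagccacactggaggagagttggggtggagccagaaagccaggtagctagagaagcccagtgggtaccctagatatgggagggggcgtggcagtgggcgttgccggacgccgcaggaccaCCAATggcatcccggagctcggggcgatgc
Cyp46a1, chr12:108334066-108334315, plus strand: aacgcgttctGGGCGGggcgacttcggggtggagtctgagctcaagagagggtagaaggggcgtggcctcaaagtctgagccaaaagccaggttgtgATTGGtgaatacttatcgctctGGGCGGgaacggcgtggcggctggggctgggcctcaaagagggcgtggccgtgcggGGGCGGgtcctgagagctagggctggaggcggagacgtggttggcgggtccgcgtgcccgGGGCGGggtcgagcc
The Ch25h window held 1 TATA box and 1 cyclic AMP response element, motifs found in 12.4% and 1.55% of all 32851 RefSeq windows of this length. The Cyp46a1 window held 4 GC boxes and 1 CCAAT box, with 67.6% G and C bases against a median of 52.4% over all windows. At least 1 GC box occurred in 32.7% of windows and 4 or more in 4.09%. The Soat1 window held 1 CCAAT box, a motif of 33.9% of windows. A sterol regulatory element (TCACNCCAC, 1.05% of windows) and a direct repeat of the kind nuclear receptors bind (a pair of AGGTCA with 4 bases between, 0.0152% of windows) had no match in any of the 5 windows. Such matches describe letters and not binding.

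Of the 8 genes, read by the brightest probe of each, 4 differed between diets at a Benjamini-Hochberg adjusted p under 0.05 in limma. Ch25h and Soat1 rose, and Cyp46a1 and Cyp7b1 fell. The brightest probe was chosen over all 8 arrays, so ATH values entered that choice, and for Soat1 they decided it. Over the whole array, 9.35% of the 16563 genes tested were called in this way, 4.05% as higher and 5.3% as lower. By probe, 5 of 13 were called against 7.99% of 31063 probes, of which 3.06% were higher and 4.94% lower. At 1%, the threshold that the study used with a test of unequal variances, limma called 1 probe, that of Cyp46a1, against 0.528% of all probes. A test with unequal variances on these values called 0 of all probes at 1%, with an adjusted p of 0.0906 for Cyp46a1. The arrays of the diets did not overlap for 4 of the 13 probes, 1 for each called gene, 2 with higher and 2 with lower ATH arrays, and did not overlap for 19.9% of all probes, 6.01% with higher and 13.8% with lower ATH arrays. The ATH arrays were the more variable, and with each diet on a slide of its own this cannot be assigned to the mice. The SD was larger on the ATH than on the STD diet for 11 of 13 probes and for 65.6% of all probes. The median log2 fold change of the 8 genes was -0.10, beside -0.14 for all genes.

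**Figure D1:**
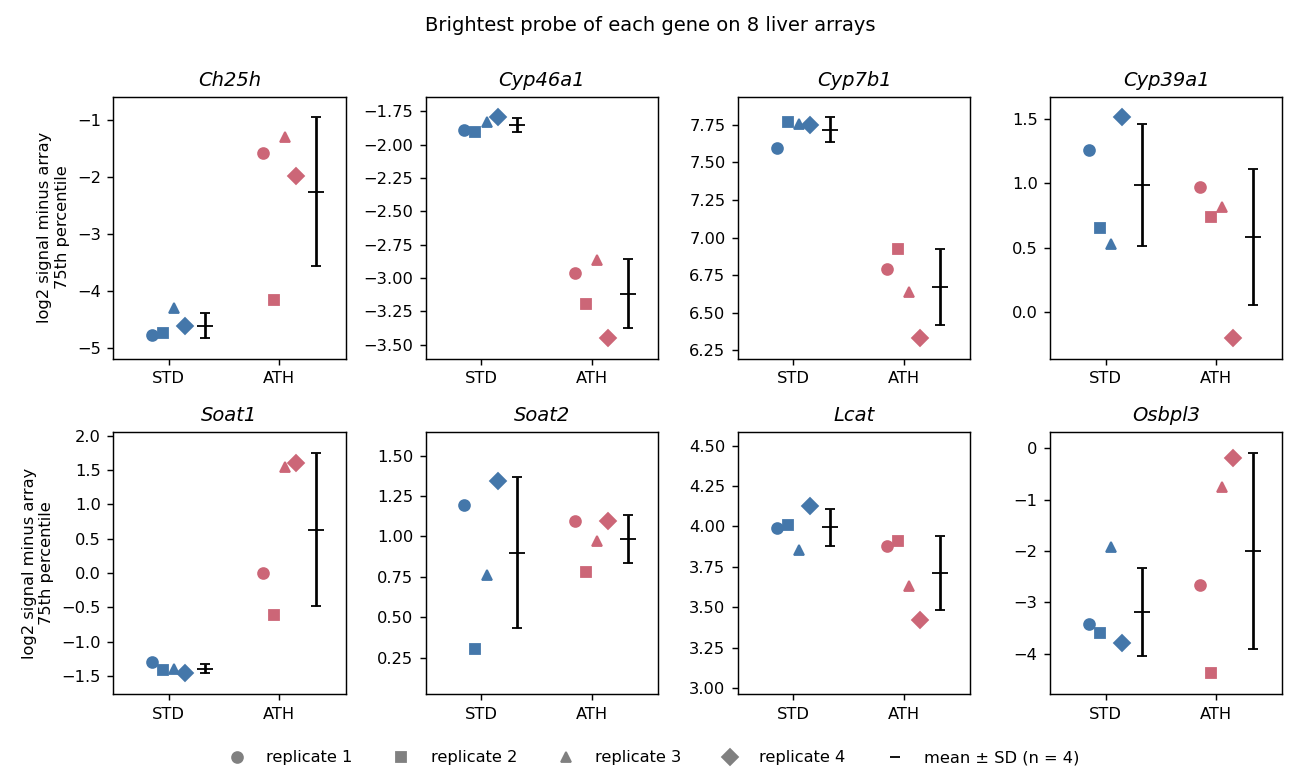
Log2 signal minus the 75th percentile of the array (vertical axes, a scale of its own for each gene) of the brightest probe of each gene in STD (blue) and ATH (red) livers. Marker shapes are replicate numbers and the bars are mean ± SD, n = 4 arrays per diet. Ch25h, Cyp46a1, Cyp7b1 and Soat1 have no overlap between diets, and ATH replicate 2 lies only 0.14 above the highest STD array for Ch25h.

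Ch25h was measured by probe A_51_P112966, which the array design places at chr19:34175232-34175291 (mm7, minus strand). It read -4.76, -4.74, -4.29 and -4.60 in STD livers. In ATH livers it read -1.58, -4.16, -1.29 and -1.99. Replicates 1, 3 and 4 of the ATH diet stood well above every STD array, while replicate 2 stood close to them. The mean level was -4.60 ± 0.21 on the STD diet and -2.25 ± 1.30 on the ATH diet (SD, n = 4 each), a log2 fold change of 2.34 ± 0.55 (SE, limma adjusted p = 0.0397), or 5.08-fold. The 95% confidence interval ran from 1.10 to 3.59 on the log2 scale. Blocking on replicate number ended this call (adjusted p = 0.0516). Of the 8 fits with 1 array left out, it passed in 1, without ATH replicate 2 (log2 fold change 2.98, adjusted p = 0.00124), and leaving out any of the other 7 arrays ended it, at up to 0.0991. Under normexp background correction, which adds an offset to every signal, the log2 fold change of Ch25h was 1.06 and remained called (adjusted p = 0.0311).

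Cyp46a1 was measured by probe A_51_P457664, whose letters the design spreads over 2399 bases of chr12:105879275-105881673 (mm7, plus strand), so the 60 bases cross at least 1 intron and match spliced RNA.
Cyp46a1 probe: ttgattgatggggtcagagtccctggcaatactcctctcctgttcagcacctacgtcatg
The STD arrays lay within 0.11 of each other, at -1.89, -1.91, -1.83 and -1.80. The ATH arrays read -2.96, -3.19, -2.86 and -3.45, all of them lower than the lowest STD array by at least 0.96. Cyp46a1 fell by 1.26 ± 0.15 on the log2 scale (SE, limma adjusted p = 0.00609), a 2.40-fold lower level with a 95% interval of the log2 fold change from -1.60 to -0.93. It was called in all 8 fits that left out an array, with log2 fold changes between -1.35 and -1.15. Its probe was well above background on all 8 arrays. Under normexp background correction the log2 fold change of Cyp46a1 was -0.84 and remained called (limma adjusted p = 0.00262).

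Cyp7b1, the enzyme that hydroxylates the product of Ch25h, was measured by probe A_51_P461429 (chr3:17798088-17798147, mm7, minus strand). It read 7.60, 7.77, 7.76 and 7.75 in STD livers. In ATH livers it read 6.79, 6.92, 6.64 and 6.33. Every ATH array was below every STD array, with ATH replicate 4 the lowest. The mean level was 7.72 ± 0.08 on the STD diet and 6.67 ± 0.25 on the ATH diet (SD, n = 4 each). Cyp7b1 fell by 1.05 ± 0.15 on the log2 scale (SE, limma adjusted p = 0.0105), which is 2.07-fold lower. The call held in all 8 fits with an array left out, and blocking on replicate number left an adjusted p of 0.0373.

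Cyp39a1, which also hydroxylates oxysterols ahead of bile acid synthesis, was not called. Its brighter probe, A_52_P557265 (chr17:41871184-41871243, mm7, plus strand), read 1.26, 0.65, 0.53 and 1.51 on the STD diet and 0.97, 0.74, 0.82 and -0.20 on the ATH diet. The ranges overlapped, and ATH replicate 4 was the lowest of the 8 arrays. The log2 fold change was -0.40 ± 0.31 (SE, limma adjusted p = 0.412), with a 95% interval from -1.10 to 0.29. The second probe, A_51_P515446, lies on the same chromosome and gave -0.44 ± 0.32 (adjusted p = 0.395). Both estimates changed sign without scaling between arrays, to 0.043 and 0.010.

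Soat1 had 4 probes that did not respond alike. The first 30 bases of 3 of them are shown because the results turn on which of them is read, and capitals are not used.
A_51_P391754, chr1:156392448-156392507: tactaataatcccaaaatggctcctaaggc
A_52_P642167, chr1:156391237-156391296: taagactgcaaactacttagcattcaaaga
A_51_P111612, chr7:64592747-64592806: ccaaggggaaaataaagattgtattttgta
Positions are those of the array design (mm7, minus strand). RefSeq places Soat1 on chromosome 1, so the probe placed on chromosome 7 may not report Soat1, and its identity was not tested.

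The brightest probe of Soat1 that the design places on chromosome 1, A_51_P391754, read -1.30, -1.41, -1.39 and -1.46 on the STD diet. On the ATH diet it read -0.0048, -0.62, 1.55 and 1.61. The STD arrays were nearly level, and ATH replicates 3 and 4 stood well above replicates 1 and 2. The STD mean of A_51_P391754 (-1.39) was below that of the chromosome 7 probe (-0.94), and its ATH mean (0.63) was above (-0.48). It was thus the brightest of all Soat1 probes only through the ATH values, although among those placed on chromosome 1 it was brightest on either diet. Soat1 rose by 2.03 ± 0.47 on the log2 scale (SE, limma adjusted p = 0.0388), or 4.07-fold, with a 95% interval from 0.96 to 3.09. A_52_P651833 was also called, at 1.76 ± 0.40 (adjusted p = 0.0381), although its diets overlapped on the arrays, with -4.57, -5.16, -5.47 and -5.05 on the STD diet and -3.02, -4.60, -2.67 and -2.92 on the ATH diet. This probe lost the call with the block (adjusted p = 0.0551), without the filter on dim probes (0.0629) and with normexp background correction (log2 fold change 0.39, adjusted p = 0.0848), and passed in 1 of 8 fits with an array left out, without ATH replicate 2 (0.00234). Leaving out any of the other 7 arrays ended its call, at up to 0.0969. A_52_P642167 gave 0.97 ± 0.38 (adjusted p = 0.134) and was well above background on 2 of 4 STD arrays. The chromosome 7 probe gave 0.46 ± 0.35 (adjusted p = 0.409). Averaged over its 4 probes, Soat1 was not called (log2 fold change 1.30, adjusted p = 0.0575), and without the chromosome 7 probe, a choice made after the values were seen, it was (1.59, adjusted p = 0.0394). For A_51_P391754 blocking on replicate number ended the call (adjusted p = 0.0577), and it passed in 2 of 8 fits with an array left out, without ATH replicate 1 (0.0467) and without ATH replicate 2 (0.0072). Leaving out any of the other 6 arrays ended it, at up to 0.0918.

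Soat2, the esterifying enzyme of hepatocytes, was not called. Its probe A_51_P196997 is spread by the design over 918 bases of chr15:102147252-102148169 (mm7, plus strand) and so also crosses at least 1 intron.
Soat2 probe: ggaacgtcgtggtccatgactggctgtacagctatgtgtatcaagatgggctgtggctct
It read 1.19, 0.31, 0.76 and 1.34 on the STD diet and 1.10, 0.78, 0.97 and 1.09 on the ATH diet. The ATH arrays lay inside the STD range, and this was the gene of the 8 whose SD was larger on the STD diet. The log2 fold change was 0.086 ± 0.22 (SE, limma adjusted p = 0.827), with a 95% interval from -0.42 to 0.59. Without STD replicate 2 the estimate changed sign, to -0.11.

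Lcat, the plasma enzyme, was not called either. Probe A_51_P336060 (chr8:104538812-104538871, mm7, minus strand) read 3.99, 4.01, 3.85 and 4.13 on the STD diet and 3.88, 3.91, 3.63 and 3.42 on the ATH diet. Replicates 3 and 4 of the ATH diet lay below all STD arrays and replicates 1 and 2 lay within their range. The log2 fold change was -0.28 ± 0.15 (SE, limma adjusted p = 0.234), with a 95% interval from -0.61 to 0.047. The sign turned when arrays were left unscaled (0.16) or scaled on spike-in probes (0.0067).

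The brightest Osbpl3 probe had the largest SD of the 8 on either diet, 0.85 on STD and 1.91 on ATH arrays. Probe A_51_P196844 (chr6:50256951-50257010, mm7, minus strand) read -3.42, -3.59, -1.92 and -3.80 on the STD diet and -2.65, -4.38, -0.75 and -0.19 on the ATH diet. ATH replicates 3 and 4 were the highest and ATH replicate 2 was the lowest of all 8 arrays. The log2 fold change of 1.19 ± 0.86 was not called (SE, limma adjusted p = 0.390), with a 95% interval from -0.77 to 3.14. The second probe, A_52_P360308, read -2.85, -5.09, -4.03 and -5.39 on the STD diet and -5.37, -4.99, -3.70 and -3.38 on the ATH diet, and gave -0.021 ± 0.63 (adjusted p = 0.986), with a sign that changed under median, quantile, spike-in and no scaling.

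**Figure D2:**
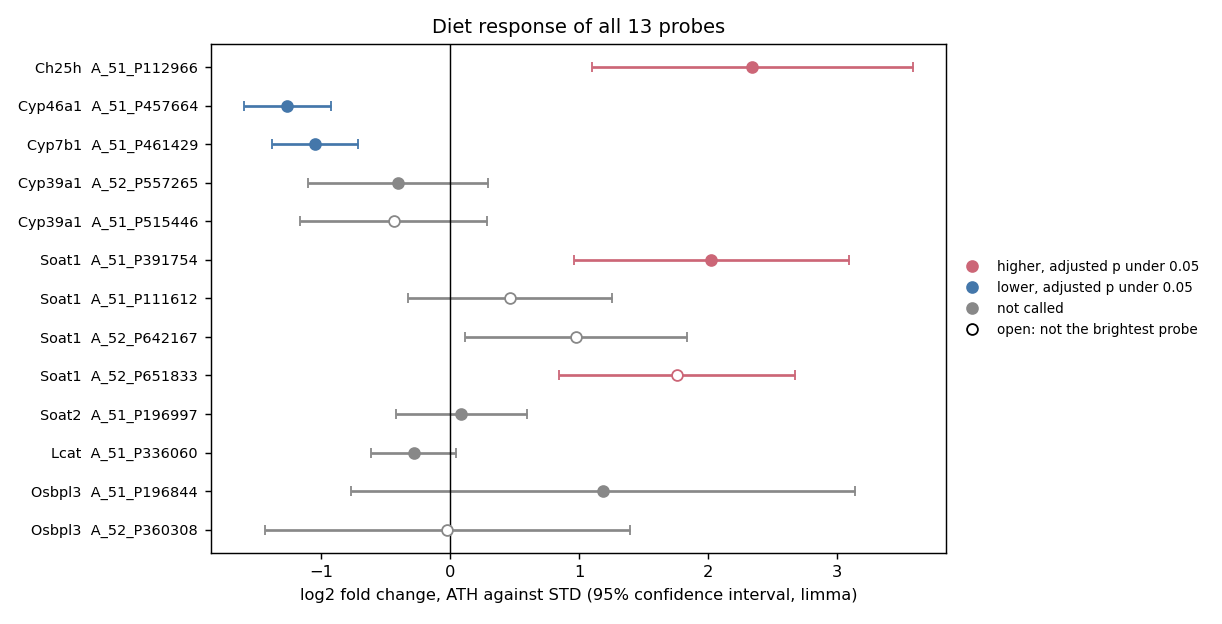
Log2 fold change of ATH against STD livers (horizontal axis) with its 95% confidence interval from limma for all 13 probes, n = 4 arrays per diet. Red and blue points passed an adjusted p under 0.05 as higher or lower, grey points did not, and open points are not the brightest probe of their gene. The 4 Soat1 probes run from 0.46 to 2.03, and the interval of the second Osbpl3 probe spans -1.44 to 1.40.

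Pairs of genes were compared for the size of their response, by taking the difference between both genes on each array, which removes the scaling of that array, and testing it between diets with an exact two-sided permutation test over 70 assignments. The smallest p such a test allows with 4 against 4 arrays is 0.0286, and p-values were adjusted over the 4 pairs compared. The responses of Soat1 and Soat2 differed by 1.94 on the log2 scale (exact p = 0.0286, adjusted 0.0571), with a 97.1% permutation interval from 0.33 to 3.38. Those of Ch25h and Cyp46a1 differed by 3.61 (exact p = 0.0286, adjusted 0.0571), with an interval from 1.5 to 4.44. Ch25h was higher and Cyp46a1 lower on every ATH array than on any STD array. Their difference could therefore not overlap between diets, and its exact p was fixed at the smallest value and adds no support. In both pairs, read by the brightest probes, the arrays of the diets did not overlap, and in neither did the adjusted p pass 0.05. The Soat1 probe read there, A_51_P391754, had the largest response of the 4 Soat1 probes (2.03, beside 1.76, 0.97 and 0.46). The difference between Soat1 and Soat2 thus rests on that probe. Cyp7b1 responded by -0.64 relative to Cyp39a1 (exact p = 0.114, adjusted 0.152, interval -1.41 to 0.29). Soat2 responded by 0.37 relative to Lcat (exact p = 0.229, adjusted 0.229, interval -0.35 to 1.38). With replicate numbers paired, the smallest exact p that 4 pairs allow is 0.125, and the adjusted p was 0.167 for Soat1 and Soat2, Ch25h and Cyp46a1, and Soat2 and Lcat, and 0.25 for Cyp7b1 and Cyp39a1. Soat2 minus Lcat was higher on the ATH array in 4 of 4 such pairs. The unpaired intervals of Cyp7b1 with Cyp39a1 and of Soat2 with Lcat hold 0 and also differences of more than 1 on the log2 scale.

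The scale between arrays bears on these directions, because the 75th percentile was 0.45 higher on ATH than on STD arrays on the log2 scale while the 8 spike-in probes were 0.16 higher. The median log2 fold change of all probes was therefore -0.15 in the main scaling, 0.14 with spike-in scaling and 0.30 without scaling. Ch25h, Soat1, Cyp46a1 and Cyp7b1 kept their direction and their call under the median, quantile, spike-in and no scaling. Ch25h ranged from 2.34 to 2.79, Soat1 from 2.03 to 2.47, Cyp46a1 from -1.26 to -0.81 and Cyp7b1 from -1.05 to -0.60. Without scaling, Cyp46a1 and Cyp7b1 thus fell on arrays whose median probe was higher.

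**Figure D3:**
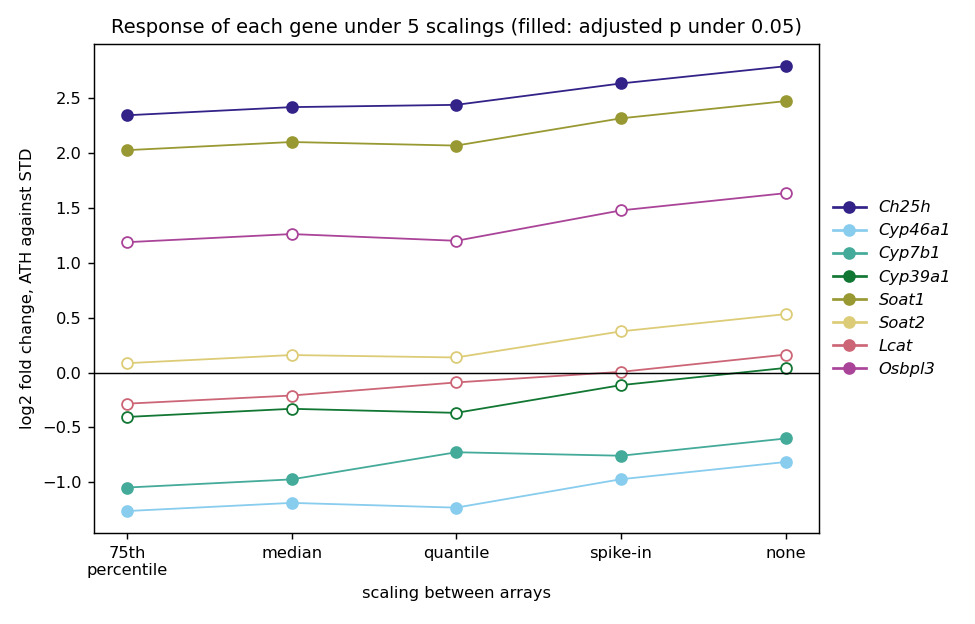
Log2 fold change of ATH against STD livers (vertical axis) of the brightest probe of each gene under 5 scalings between arrays (horizontal axis), with filled points at an adjusted p under 0.05 in limma and lines joining a gene. Ch25h, Soat1, Cyp46a1 and Cyp7b1 are filled under all 5, while Lcat and Cyp39a1 pass through 0, Lcat reaching 0.16 without scaling.

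The cell types of the tissue were read from marker lists on the same arrays. All 12 hepatocyte markers were detected on the arrays, at a mean log2 level of 7.59 to 7.65 in STD livers and 6.84 to 7.31 in ATH livers, and 5 of the 12 were called lower. That count was 2 with median or spike-in scaling, 1 with quantile normalization, 1 with no scaling, where 6 of 12 were higher, 1 with the replicate block and 1 to 6 with an array left out, with 1 or 2 called without any of the STD arrays or ATH replicates 3 or 4. Of all 16563 genes, 878 were called lower in the main setting, 483 with median, 229 with spike-in and 224 with no scaling. Quantile normalization gave 496, the block 456, and leaving out 1 array 134 to 1220. All 12 macrophage markers were detected, and 7 of 12 were called higher, all 12 being higher under the main, spike-in and no scaling. The count of called macrophage markers was 4 with the replicate block and 2 without the filter on dim probes. It was 1 or 2 without any of the STD arrays or ATH replicates 3 or 4, 4 without ATH replicate 1 and 9 without ATH replicate 2. Of all genes, 670 were called higher in the main setting, 342 with the block and 260 without the filter. With an array left out 100 to 1238 genes were called higher, the most without ATH replicate 2. The mean level of the macrophage markers was 1.66 to 1.98 on STD arrays and 3.18, 2.34, 4.23 and 4.47 on ATH arrays 1 to 4. The log2 of their summed signal ran from 6.83 to 7.10 on the STD diet and from 7.79 to 9.87 on the ATH diet. In whole tissue, fewer or more cells of a type and less or more RNA per cell cannot be told apart.

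Relative to the STD mean, ATH replicates 1 to 4 stood at 1.39, 0.78, 2.94 and 2.998 for Soat1. Macrophage markers stood at 1.32, 0.49, 2.37 and 2.61. Both had the order replicate 4, 3, 1, 2, as did Osbpl3, with 0.53, -1.20, 2.43 and 2.99, each gene read by its brightest probe. Among the other Soat1 probes A_52_P642167 had this order, while A_52_P651833 and the chromosome 7 probe had replicate 3, 4, 1, 2. The second Osbpl3 probe had replicate 4, 3, 2, 1. How many of all genes had such an order was not counted. Ch25h shared replicate 2 as its lowest array but had replicate 3 as its highest, with 3.02, 0.44, 3.31 and 2.61. Neutrophil markers (0.39, 0.11, 2.06 and 1.41) and lymphocyte markers (0.36, -0.27, 1.26 and 1.19) likewise had replicate 2 lowest and replicate 3 highest. Hepatocyte markers stood at -0.33, -0.30, -0.77 and -0.72. Cyp7b1 stood at -0.93, -0.80, -1.08 and -1.38, and Cyp46a1 at -1.11, -1.34, -1.01 and -1.59, both further from the STD mean than the mean of the hepatocyte list on every ATH array. A single hepatocyte marker fell about as far as Cyp7b1: Tat, an enzyme of tyrosine breakdown, had a log2 fold change of -1.05 ± 0.15 (SE, limma adjusted p = 0.0104). Stellate cell markers had 1 of 8 called higher (7 without scaling), endothelial markers 2 of 8 (6 without scaling) and bile duct markers 1 of 6 (3 without scaling), with 0 of each called without any 1 of the STD arrays or ATH replicate 4. Of all 16563 genes, 670 were called higher in the main setting and 4286 without scaling. Without 1 of those arrays 100 to 221 were, so these counts moved with that of the whole array. Lymphocyte and neutrophil markers had 0 of 8 and 0 of 6 called in limma, with 3 and 2 at an unadjusted p under 0.05 and 0 of each by the test with unequal variances. That last test called only 3 of all 16563 genes higher and 8 lower, so its 0 says little about these lists. With the replicate block 2 neutrophil markers and 0 lymphocyte markers were called, without ATH replicate 2 there were 2 and 3, and without scaling 2 and 1. Of all genes, 342 were called higher with the block and 1238 without ATH replicate 2. The part of any cell type in the responses of Ch25h, Soat1, Cyp46a1 and Cyp7b1 was not tested.

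**Figure D4:**
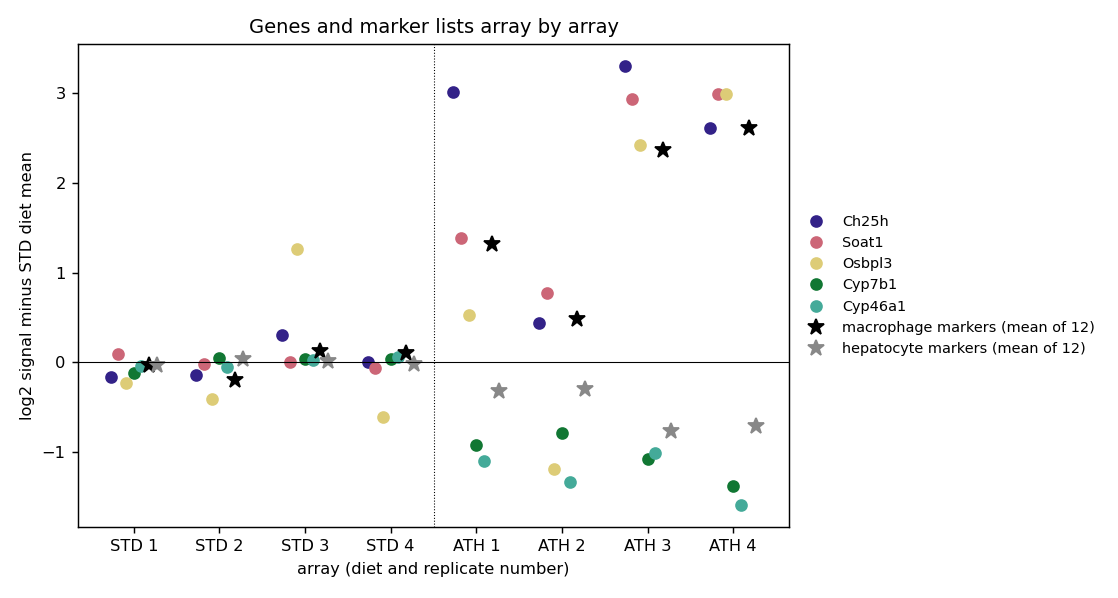
Log2 signal minus the mean of the 4 STD arrays (vertical axis) for 5 genes (circles) and for the mean of 12 macrophage and 12 hepatocyte markers (stars) on each array (horizontal axis, diet and replicate number). On ATH replicate 2 Ch25h (0.44), Soat1 (0.78) and the macrophage list (0.49) are at their lowest ATH values, and Osbpl3 is at -1.20.

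Genes with the array pattern closest to each called member were taken from the 14947 genes detected on all 8 arrays, leaving out the member itself, by the root mean square of the differences in log2 deviation over all 8 arrays. For Ch25h these were Dusp2 (0.34) and Klrd1 (0.38). For Soat1 they were Sirpa (0.076) and Trps1 (0.090). Cyp7b1 was nearest to Stpg4 (0.087) and Olfr166 (0.099), and Cyp46a1 to Olfr59 (0.12) and Csrp3 (0.14). The nearest genes thus lay further from Ch25h than from the other called members. These values describe likeness over 8 arrays of 2 diets and were not tested.

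Other genes of oxysterol and cholesterol ester handling were taken from lists, and 9 of the 42 tested (21.4%) were called, beside 9.35% of all genes. The lists were chosen with earlier results of these data known, so the difference between these shares is not a test of the pathway. In the main scaling 2 were higher and 7 lower, with spike-in scaling 4 and 4, and without scaling 9 and 4. Of all 16563 genes, 670 were called higher and 878 lower in the main scaling. These counts were 1186 and 229 with spike-in scaling and 4286 and 224 without scaling. The balance of directions in these lists thus moved with that of the whole array. Of 12 other enzymes of oxysterol and bile acid synthesis, 4 fell and 0 rose. Cyp8b1, the sterol hydroxylase that sets the cholic acid share of bile, fell by 4.00 ± 0.65 on the log2 scale (SE, limma adjusted p = 0.0164). Cyp3a11, which hydroxylates sterols and bile acids, fell by 1.83 ± 0.17 (adjusted p = 0.00338). Akr1d1 fell by 1.20 ± 0.24 (adjusted p = 0.0260) and Cyp27a1, the mitochondrial side-chain hydroxylase, by 0.72 ± 0.15 (adjusted p = 0.0284). Cyp7a1, the rate-limiting enzyme of bile acid synthesis, gave -0.48 ± 0.55 (adjusted p = 0.598) and Hsd3b7, which acts after Cyp7b1, gave -0.27 ± 0.23 (adjusted p = 0.466). The median of this list was -0.49 beside -0.14 for all genes, and -0.039 beside 0.31 without scaling.

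Of 12 esterases and lipoprotein partners, 2 rose and 2 fell. Apoa4, an apolipoprotein that activates Lcat, rose by 1.37 ± 0.17 on the log2 scale (SE, limma adjusted p = 0.00662), and Scarb1, the receptor that takes up cholesterol esters from high-density lipoprotein, rose by 0.69 ± 0.13 (adjusted p = 0.0208). The carboxylesterases Ces1f and Ces1d fell by 1.76 ± 0.40 (adjusted p = 0.0380) and 0.90 ± 0.23 (adjusted p = 0.0487). Carboxylesterase genes lie in a family of close copies, so a probe may read more than 1 of them. Among 8 receptors and sensors, Insig1, which holds the sterol sensor in the endoplasmic reticulum, fell by 1.81 ± 0.25 (adjusted p = 0.00965). Gpr183, the receptor for the oxysterol that Ch25h and Cyp7b1 make in turn, gave 0.79 ± 0.24 (adjusted p = 0.0705). The liver X receptors Nr1h3 and Nr1h2 gave -0.18 ± 0.11 (adjusted p = 0.336) and -0.051 ± 0.11 (adjusted p = 0.789). Of the 10 other oxysterol-binding proteins tested, 0 were called in limma and 0 by the test with unequal variances, with 3 at an unadjusted p under 0.05 in limma, and Osbpl6 was not detected. The test with unequal variances called only 3 of all 16563 genes higher and 8 lower, so its 0 says little about this list. The medians of these lists, -0.13, -0.15 and -0.17, lay close to that of all genes and were 0.32, 0.29 and 0.28 without scaling, where all genes had 0.31.

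**Figure D5:**
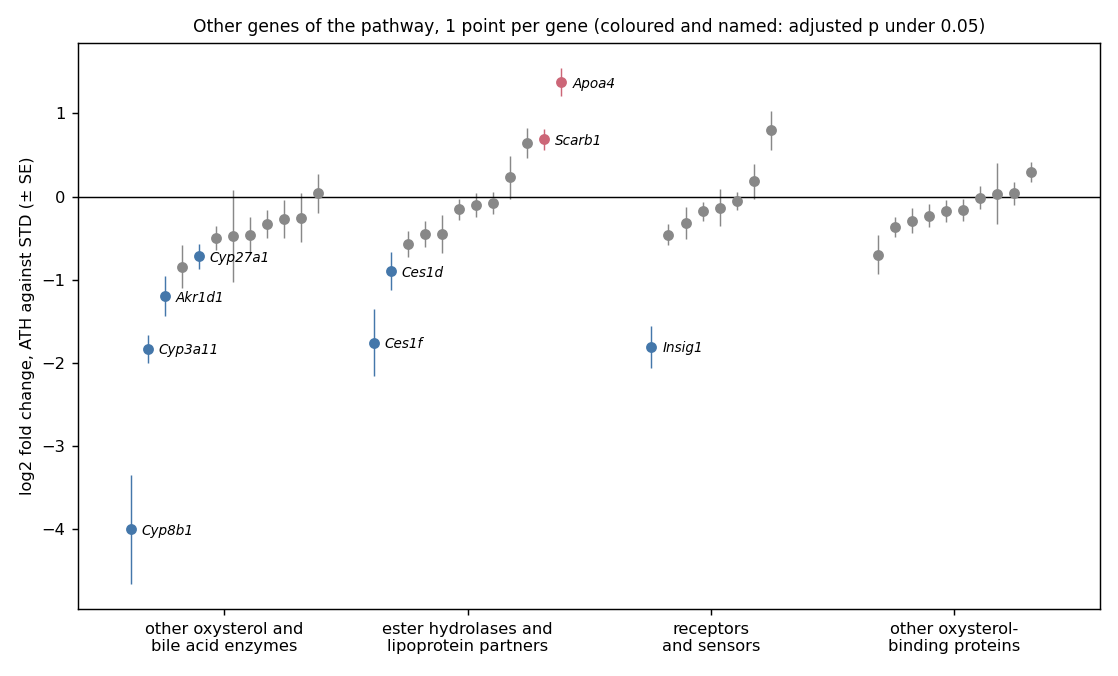
Log2 fold change of ATH against STD livers (vertical axis, ± SE from limma, n = 4 arrays per diet) for 42 other genes in 4 lists, 1 point per gene. Named points passed an adjusted p under 0.05, with Cyp8b1 at -4.00 and Apoa4 at 1.37 the ends of the range.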

How the data were processed

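Liver RNA of 4 STD and 4 ATH mice was measured on 1 Agilent array each. Per the labels, the authors used Agilent Feature Extraction version 9.5, and the deposited spot intensity values are background-subtracted. A second deposited table gives log2 values, and 99.95% of those compared equal the values used here within 0.001, once a constant is allowed for each array and probe. Each of the 2 slides held 1 diet, and the effects of slide and diet cannot be told apart.

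Spots of a probe were averaged without spots flagged as outliers, and log2 signal minus the 75th percentile of the array over non-control probes was used. A probe was kept where 3 or more arrays of a diet detected it (31063 of 41174), and between 72.3% and 77.8% of spots were well above background on each array. The precision is limited by the 8 arrays. Diets were compared in limma 3.58.1 (R 4.3.3, moderated two-sided test), with Benjamini-Hochberg adjustment over all kept probes. A gene was read by its brightest probe, averaged over the 8 arrays, so the ATH values entered that choice. The study's threshold of 1% is given beside 5%. Exact permutation tests and summaries were computed in Python 3.11.15 (pandas 2.3.3, numpy 2.4.6, scipy 1.17.1), with matplotlib 3.10.9 for plots. Samples with the same replicate number shared a slide position, and departures from the mean of their diet were correlated for all 4 numbers (0.10, 0.23, 0.18 and 0.18), so the number was also fitted as a block. The fit was tested on simulated data for ATH against STD, where 80.5% of 200 probes given a log2 change of 2, among 31049, were recovered. Of the 171 probes called there, 161 had been given the change. The simulated noise had the same SD on both diets for a probe, so unequal spread between diets was not tested.

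Gene names came from accessions (22951 probes), symbols (6659) and synonyms (3109) of RefSeq, and 8455 probes kept the name in the file. Probe positions are of the design's mm7 assembly. The sequence of 1 Soat1 probe is not reported here. Members and lists were chosen with earlier results of these data known. Genes named are all members, the called genes of the lists, genes that a clause on a member's route needed, and the 2 genes nearest in pattern to each called member. Nothing in the sources used here says whether the mice of a diet shared a cage. The p-values rest on the spread between arrays, 1 per mouse, which mixes mouse and array and is moderated over probes in limma. They do not cover an effect of slide.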

Additional observations from a re-analysis of the deposited data

Results flagged for a closer look

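Of 26 groups of 4 arrays (13 probes on each diet), 2 held an array whose gap to its nearest neighbour was an unusually large share of the range of the group, beside the 1 in 20 that chance gives. For Cyp7b1 on the STD diet, replicate 1 was the low array, with 0.883 of the range. Its level was 7.60 and the others lay between 7.75 and 7.77. For the second Cyp39a1 probe, A_51_P515446, on the ATH diet, replicate 4 was the low array, with 0.851 of the range and a level of -0.88.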

How the results depend on the processing

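Over all probes 2483 were called in the main setting, 7366 without scaling, 6394 with normexp background correction, 1086 without the filter on dim probes, 1322 with the replicate number as a block, 164 at 1%, 22 by the methods' t-test with unequal variances after Benjamini-Hochberg adjustment (7102 at an unadjusted p under 0.05, 0 at 1% after adjustment), and 394 to 3979 with an array left out. Among called probes 949 of 2483 were higher in the main setting, 6992 of 7366 without scaling, 1830 of 2219 with spike-in scaling, 1028 of 1870 with median scaling, 1046 of 1925 with quantile normalization and 1210 of 6394 with normexp. Of the 8 genes 4 were called in the main setting, 2 without the filter, 2 with the block, 1 at 1%, 0 by the methods' test (5 of 13 probes at an unadjusted p under 0.05), and 2 to 4 with an array left out. Without the filter and with the block, Ch25h and Soat1 lost the call. Of the other pathway genes 9 were called, 17 with normexp, 0 by the methods' test, 6 with the block and 3 to 12 with an array left out, by settings added after the data were seen. With the block the other called probes, those of Cyp46a1 and Cyp7b1, kept theirs. Directions turned for Cyp39a1 without scaling (0.043 for A_52_P557265 and 0.010 for A_51_P515446), for Lcat without scaling (0.16) and with spike-in scaling (0.0067), for Soat2 without STD replicate 2 (-0.11, with up to 0.23 without another array), and for the second Osbpl3 probe with median (0.053), quantile (0.099), spike-in (0.27) and no scaling (0.43) and without 1 array (-0.37 to 0.48 over the 8 arrays). The cause was not tested. Of 257 values of probes under alternatives, 211 stayed on their side of the threshold and kept direction, 32 lost the call, 1 gained it and 13 turned. Dim probes, such as those of Ch25h and Osbpl3, A_52_P642167 and A_52_P651833, limit what a fold change can show. The Cyp46a1 probe was also dim on ATH arrays (mean -3.12).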
